A study of Homo sapiens with 3 samples.

Results

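The genes described here are 9 cofactors of the androgen receptor, FOXA1, HOXB13, GATA2, GRHL2, NCOA1, NCOA2, NCOA3, NCOR1 and EP300. They were taken as the rows of the deposited count table whose Ensembl identifier carries 1 of these names in GENCODE release 29, and all 9 were found among 58884 gene rows. All 9 also passed the count filter, a mean of at least 50 counts over the libraries, which kept 12256 genes. The cells were LNCaP, an established human prostate cancer line that depends on androgen signalling. After 24 h in complete medium they were kept for 72 h in medium that held 2% fetal bovine serum and 50% conditioned medium (CM). The conditioned medium was control-CM, PVAT-CM or PPAT-CM, and the library titles end in the letters C, N and T in this order. The series title gives periprostatic adipose tissue, PPAT for short, whereas PVAT is spelled out nowhere in the labels. There was 1 library for each medium, so no difference below has a replicate check, no test across libraries was possible, and each comparison is between 2 libraries.

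The androgen receptor is a nuclear receptor that enters the nucleus when it binds hormone and occupies response elements near genes such as KLK3, which encodes prostate-specific antigen. It depends on transcription factors that open or mark chromatin at these elements and give the response its prostate character. It also depends on coregulators that read its conformation. Coactivators of the p160 family bind the hormone-bound receptor and bring in the acetyltransferase EP300, while the corepressor NCOR1 brings in histone deacetylases.

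Library totals lay between 14174241 and 16965584 counts. Below, 3 values given together without names are for control-CM, PVAT-CM, PPAT-CM, in this order. Mitochondrially encoded genes took 30.8%, 21.1% and 15.5% of all counts. A level is given as TMM-scaled CPM, the count divided by the library size after scaling by TMM factors, on the scale of counts per 1000000. Ranges in parentheses are 95% intervals that cover counting error only, and since the labels mention no molecular identifiers, PCR copies of 1 molecule may count more than once. Luminal epithelial markers, 9 genes, summed to between 47648 and 49956 counts per library. Of the other marker lists, KRT5 and TP63 of basal cells, ADIPOQ, FABP4 and LEP of adipocytes, DCN and PDGFRA of fibroblasts and PTPRC of leukocytes were at 0 in all 3 libraries. The 5 basal markers together had 179, 88 and 69 counts, most of them from ITGB4, the 7 adipocyte markers 47, 46 and 123, the 8 leukocyte markers 18, 21 and 15, the 4 endothelial markers 27, 16 and 35, and the 7 fibroblast markers 783, 367 and 531, most of them from COL1A1. PLIN1 gave 13, 27 and 89 of the adipocyte counts, and the part of these markers in the results was not tested.

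Of the cofactors, GATA2 had the largest difference between PPAT-CM and control-CM. Its transcript was 1.77-fold lower in PPAT-CM than in control-CM and was between these levels in PVAT-CM. Of all genes tested, 20.7% differed by at least 1.5-fold between PPAT-CM and control-CM. When libraries were scaled by total counts, GATA2 was just inside 1.5-fold, at -0.58 on the log2 scale. GRHL2 was the cofactor with the largest ratio in the other direction, 1.27-fold higher in PPAT-CM than in control-CM. FOXA1, HOXB13, the p160 coactivators NCOA1, NCOA2 and NCOA3, the corepressor NCOR1 and EP300 lay within 1.3-fold of control-CM in both adipose media.

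The sequences below are shown because they lie at the start sites of the cofactor with the largest difference and of the classic readout of the receptor. They are the 250 bases before each start that RefSeq gives on GRCh38.p14, printed 5′ to 3′ on the strand of the gene. GATA2 has 2 such starts, at chr3:128493202-128493451 and chr3:128488531-128488780 (minus strand), and KLK3 has 1, at chr19:50854665-50854914 (plus strand). Capitals mark the letters AGAACA, a half-site of the androgen response element.
GATA2 upstream start: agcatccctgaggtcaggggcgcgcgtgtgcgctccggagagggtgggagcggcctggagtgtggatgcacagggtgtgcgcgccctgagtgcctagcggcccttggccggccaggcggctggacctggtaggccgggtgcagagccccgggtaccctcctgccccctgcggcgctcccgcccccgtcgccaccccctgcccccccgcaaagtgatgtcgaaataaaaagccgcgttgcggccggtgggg
GATA2 downstream start: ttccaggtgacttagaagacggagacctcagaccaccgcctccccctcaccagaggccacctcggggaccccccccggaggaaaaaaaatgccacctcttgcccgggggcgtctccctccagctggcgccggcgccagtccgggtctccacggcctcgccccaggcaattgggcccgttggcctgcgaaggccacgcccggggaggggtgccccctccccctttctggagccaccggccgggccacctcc
KLK3: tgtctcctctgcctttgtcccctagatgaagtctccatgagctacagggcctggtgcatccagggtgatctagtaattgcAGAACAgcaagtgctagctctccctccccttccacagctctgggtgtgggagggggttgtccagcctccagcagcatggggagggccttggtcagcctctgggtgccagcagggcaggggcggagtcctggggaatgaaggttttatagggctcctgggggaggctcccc

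In the KLK3 window the half-site begins 170 bases before the start. The GATA2 windows hold no copy of it on either strand, and they are rich in G and C, at 72.8% and 71.2%. Motifs were searched in the same 250 bases before each start in every gene. Such windows were found for 6 of the 9 cofactors, 10 windows in all. Of these, 0 hold AGAACA or its reverse complement, against 12.4% of 35116 windows of all genes. The forkhead motif TGTTTAC is in 0 of the 10 and in 2.98% of all windows, the GATA motif AGATAA in 1, at NCOA1, and in 9.17%, the HOXB13 motif CCAATAAA in 0 and in 0.863%, and the GRHL motif AACCGGTT in 0 and in 0.117%. Both strands were searched, and none of these motifs contains another. The gene counts do not separate transcripts from the 2 GATA2 starts.

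Levels of different genes were compared per kb of exon. Each transcription factor was above each coregulator in all 3 libraries. In control-CM, FOXA1 was at 160 CPM per kb, GATA2 at 115.9, HOXB13 at 114 and GRHL2 at 18.0. The coregulators followed with NCOA1 at 7.996, NCOR1 at 7.24, NCOA2 at 6.30, EP300 at 5.72 and NCOA3 at 3.12. FOXA1 was above 98.3% of the genes tested in control-CM, HOXB13 above 97.7% and GATA2 above 97.7%, while NCOA3 was above 31.4%. GATA2 and HOXB13, NCOA1 and NCOR1, and NCOA2 and EP300 were neighbours whose counting intervals overlapped in control-CM. In PVAT-CM the order was FOXA1 at 169, HOXB13 at 106, GATA2 at 91.4, GRHL2 at 15.9 and NCOA1 at 7.41 CPM per kb. It went on with NCOA2 at 6.46, NCOR1 at 5.67, EP300 at 5.62 and NCOA3 at 3.23, and only NCOR1 and EP300 overlapped as neighbours. In PPAT-CM it was FOXA1 at 147, HOXB13 at 109, GATA2 at 65.5, GRHL2 at 22.8 and NCOA1 at 7.45 CPM per kb. NCOR1 at 5.82, NCOA2 at 5.19, EP300 at 5.16 and NCOA3 at 3.26 came last, and only NCOA2 and EP300 overlapped as neighbours. Per kb of exon, GATA2 thus ranked second of the 9 in control-CM, level with HOXB13 within counting error. In both adipose media it was below FOXA1 and HOXB13. This order rests on the length used, since per kb of the longest transcript GATA2 was above HOXB13 in control-CM and PVAT-CM.

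**Figure D1:**
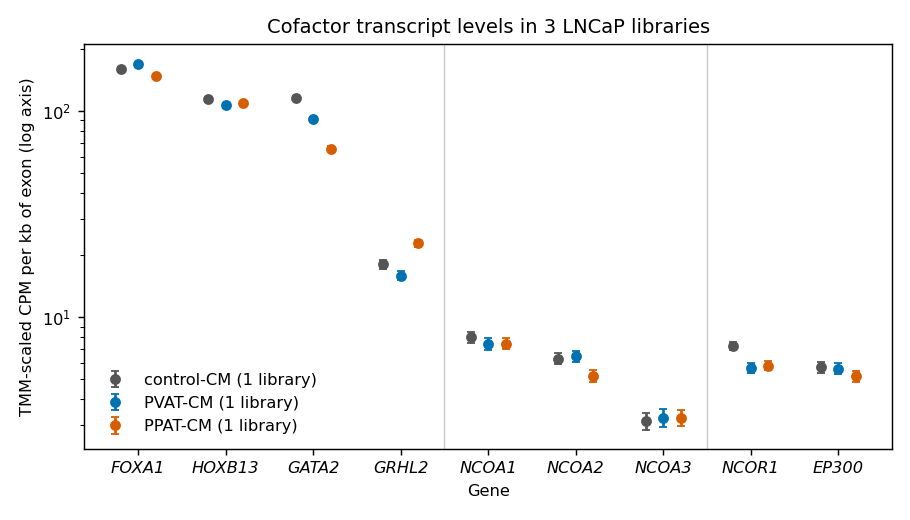
Level of each cofactor gene in TMM-scaled CPM per kb of exon (log axis) in the control-CM, PVAT-CM and PPAT-CM libraries, 1 point per library with its 95% counting interval. Grey lines separate the transcription factors, the p160 coactivators, and NCOR1 with EP300. GATA2 steps down from 115.9 to 91.4 and 65.5, while FOXA1 and HOXB13 stay above 100 in each library.

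FOXA1 is a forkhead pioneer factor that opens chromatin for the receptor (ENSG00000129514, chromosome 14, 37589984 to 37596059, GRCh38). It had 9676, 9566 and 10763 counts, or 638, 671 and 585 CPM. PVAT-CM was the highest library and PPAT-CM the lowest, and the whole range was 1.15-fold. FOXA1 was 1.09-fold lower (1.06 to 1.12) in PPAT-CM than in control-CM, a direction that turned when libraries were scaled by total counts. It was 1.05-fold higher (1.02 to 1.08) in PVAT-CM than in control-CM and 1.15-fold lower (1.12 to 1.18) in PPAT-CM than in PVAT-CM. Its exons overlap those of TTC6 on the opposite strand by 16 bases.

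HOXB13 is a homeobox factor that marks prostate epithelium (ENSG00000159184, chromosome 17, 48724763 to 48729178). It had 5974, 5259 and 6940 counts, or 394, 369 and 377 CPM. Its levels spanned 1.07-fold, the narrowest range of the transcription factors. It was 1.04-fold lower (1.01 to 1.08) in PPAT-CM and 1.07-fold lower (1.03 to 1.11) in PVAT-CM than in control-CM, and both directions turned with total counts. The interval of PPAT-CM against PVAT-CM included 1 (0.987 to 1.06).

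GATA2 is a zinc finger factor that acts with FOXA1 at enhancers of the receptor (ENSG00000179348, chromosome 3, 128479427 to 128493185). It had 7836, 5812 and 5369 counts, or 517, 408 and 292 CPM. The libraries were ordered from control-CM down to PPAT-CM, as were their mitochondrial shares of 30.8%, 21.1% and 15.5% and their basal marker counts of 179, 88 and 69, whose part in the result was not tested. GATA2 was 1.77-fold lower (1.71 to 1.83) in PPAT-CM than in control-CM, at -0.82 on the log2 scale. It was 1.27-fold lower (1.22 to 1.31) in PVAT-CM than in control-CM and 1.40-fold lower (1.35 to 1.45) in PPAT-CM than in PVAT-CM. With total counts the ratio of PPAT-CM to control-CM was -0.58 on the log2 scale, just inside the 1.5-fold threshold. In bulk RNA, fewer cells with the transcript and less transcript per cell cannot be told apart. No exon of another annotated gene overlaps its exons. Of all genes tested, 4.40% had a lower ratio than GATA2 in PPAT-CM against control-CM.

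GRHL2 is a grainyhead factor that maintains epithelial identity (ENSG00000083307, chromosome 8, 101492432 to 101669726). It had 1656, 1374 and 2546 counts, or 109, 96.4 and 138 CPM. PPAT-CM was the highest library and PVAT-CM the lowest. GRHL2 was 1.27-fold higher (1.19 to 1.35) in PPAT-CM and 1.13-fold lower (1.05 to 1.22) in PVAT-CM than in control-CM. It was 1.44-fold higher (1.34 to 1.54) in PPAT-CM than in PVAT-CM, and with total counts this ratio was 0.63 on the log2 scale and past 1.5-fold. An antisense gene that overlaps 50 bases of its exons had 86, 80 and 237 counts, and the strand setting of the counting is not given in the sources used here.

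**Figure D2:**
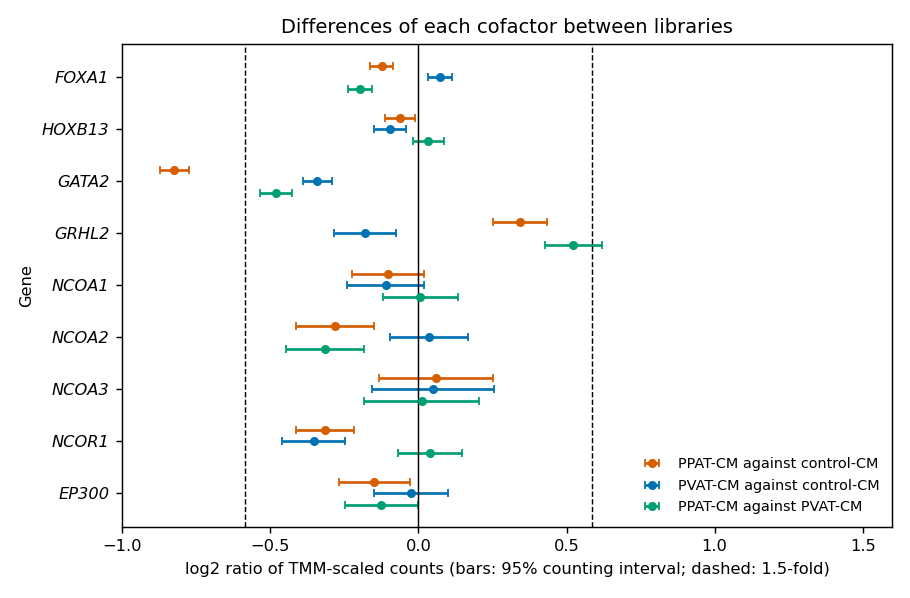
log2 ratio of TMM-scaled counts of each cofactor in PPAT-CM against control-CM, PVAT-CM against control-CM and PPAT-CM against PVAT-CM, with 95% counting intervals as bars and 1.5-fold as dashed lines (1 library per medium). GATA2 in PPAT-CM against control-CM, at -0.82, is the only point outside the dashed lines.

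The p160 genes were described together because they are paralogs that bind the same surface of the receptor. NCOA1 (ENSG00000084676, chromosome 2, 24491914 to 24770702) had 1047, 912 and 1182 counts, or 69.0, 64.0 and 64.3 CPM. NCOA2 (ENSG00000140396, chromosome 8, 70109762 to 70403805) had 958, 923 and 956 counts, or 63.2, 64.7 and 52.0 CPM. NCOA3 (ENSG00000124151, chromosome 20, 47501902 to 47656877), a gene often amplified in cancer, had 398, 387 and 503 counts, or 26.2, 27.1 and 27.4 CPM. Only NCOA2 had a library apart from the others, PPAT-CM on the low side. NCOA2 was 1.21-fold lower (1.11 to 1.33) in PPAT-CM than in control-CM and 1.245-fold lower (1.14 to 1.36) than in PVAT-CM. Its interval for PVAT-CM against control-CM included 1 (0.935 to 1.12). All intervals of NCOA1 and NCOA3 included 1. For NCOA1 they were 0.856 to 1.01 in PPAT-CM and 0.847 to 1.01 in PVAT-CM against control-CM, and for NCOA3 0.912 to 1.19 and 0.897 to 1.19. SULF2, on the opposite strand, overlaps 96 bases of NCOA3 exons and had at most 26 counts.

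EP300, the acetyltransferase that p160 proteins recruit (ENSG00000100393, chromosome 22, 41091786 to 41180079), had 1084, 1002 and 1185 counts, or 71.5, 70.3 and 64.4 CPM. The PPAT-CM library was lowest, 1.11-fold lower (1.02 to 1.21) than control-CM, a direction that turned with total counts. The interval of PVAT-CM against control-CM included 1 (0.902 to 1.07). NCOR1, the corepressor (ENSG00000141027, chromosome 17, 16029157 to 16218185), had 1692, 1245 and 1649 counts, or 112, 87.3 and 89.7 CPM. Both adipose media were below control-CM and close to each other. NCOR1 was 1.24-fold lower (1.16 to 1.33) in PPAT-CM and 1.28-fold lower (1.19 to 1.38) in PVAT-CM than in control-CM, while the interval between the adipose media included 1 (0.953 to 1.11). PIGL, on the opposite strand, overlaps 321 bases of its exons and had 435, 300 and 400 counts, and the 3 NCOR1 pseudogenes had at most 1 count in any library.

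Counted together, 1 of the 9 cofactors was at least 1.5-fold lower in PPAT-CM than in control-CM and 0 were higher. Of all genes tested, 8.71% were lower and 12.0% higher by this rule, 20.7% in either direction, so the count of 1 is near the background. In PVAT-CM against control-CM 0 of 9 passed in either direction, where 3.49% of all genes were lower and 3.15% higher, or 6.64% in all. In PPAT-CM against PVAT-CM again 0 of 9 passed, where 6.07% were lower and 8.56% higher, or 14.6% in all. By the weaker rule of a counting interval that excludes 1, GRHL2 was higher in PPAT-CM than in control-CM and 6 cofactors were lower, beside 35.0% and 29.0% of all genes. Of these 6, FOXA1, HOXB13 and EP300 turned direction when libraries were scaled by total counts. For PVAT-CM against control-CM FOXA1 was higher and 4 were lower, beside 24.0% and 20.5%. For PPAT-CM against PVAT-CM GRHL2 was higher and 4 were lower, beside 30.7% and 25.6%. The median absolute log2 ratio of the cofactors was 0.15, 0.09 and 0.13 in these comparisons, and that of all genes tested 0.29, 0.18 and 0.23. The cofactors had mean counts between 429 and 10002, against a median of 462 over all genes tested, and ratios of genes with fewer counts carry more counting noise. Intervals of genes with more counts are narrower and exclude 1 more readily. The signed medians of the cofactors were -0.12, -0.09 and 0.01, beside 0.03, 0.02 and 0.02 over all genes. The comparisons of PPAT-CM and PVAT-CM with control-CM share the control library.

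**Figure D3:**
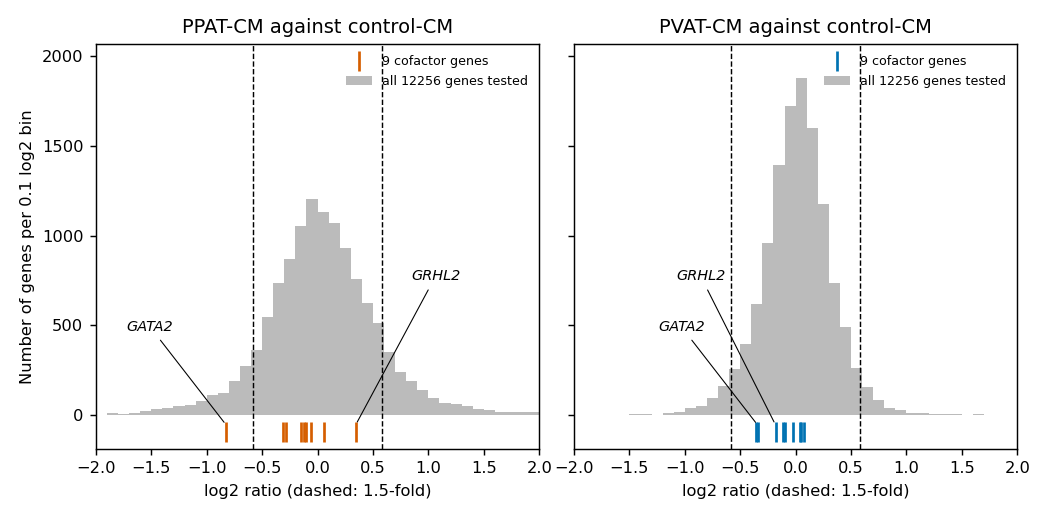
Number of genes tested per 0.1 log2 bin of the ratio in PPAT-CM against control-CM and in PVAT-CM against control-CM (grey bars, axis limited to between -2 and 2), with the 9 cofactor genes as ticks under the bars and 1.5-fold as dashed lines. In PPAT-CM against control-CM the GATA2 tick lies at -0.82, outside the dashed line, and the other 8 lie inside.

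Shares within 1 library do not depend on how libraries are scaled. Of the summed raw counts of FOXA1, HOXB13, GATA2 and GRHL2, GATA2 took 31.2% (30.6 to 31.7), 26.4% (25.8 to 27.0) and 21.0% (20.5 to 21.5). GRHL2 took 6.59% (6.28 to 6.90), 6.24% (5.93 to 6.57) and 9.94% (9.57 to 10.3). The share of GATA2 was thus lowest and that of GRHL2 highest in PPAT-CM, and these intervals did not overlap those of the other libraries. FOXA1 took 38.5%, 43.5% and 42.0%, and HOXB13 23.8%, 23.9% and 27.1%. Per FOXA1 count there were 0.810 GATA2 counts (0.786 to 0.834), then 0.608 (0.588 to 0.628) and 0.499 (0.483 to 0.515). Per GATA2 count there were 0.211 GRHL2 counts (0.2003 to 0.223), 0.236 (0.223 to 0.251) and 0.474 (0.452 to 0.497). These ratios, which were chosen after the values were seen, put the balance of GATA2 with its partners in PPAT-CM apart from that in control-CM by more than counting error.

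The p160 transcripts were compared in the same way. NCOA1 took 43.6% (41.6 to 45.6), 41.0% (39.0 to 43.1) and 44.8% (42.8 to 46.7) of the p160 counts. NCOA2 took 39.9% (37.9 to 41.9), 41.5% (39.5 to 43.6) and 36.2% (34.4 to 38.1). NCOA3 took 16.6% (15.1 to 18.1), 17.4% (15.9 to 19.1) and 19.0% (17.6 to 20.6). The intervals of NCOA1 and of NCOA3 overlapped across all 3 libraries, and that of NCOA2 in PPAT-CM overlapped the one in control-CM and not the one in PVAT-CM. NCOR1 stood at 1.56 counts per EP300 count (1.45 to 1.69), then 1.24 (1.14 to 1.35) and 1.39 (1.29 to 1.501). For this ratio the PPAT-CM interval overlapped those of control-CM and PVAT-CM, while the control-CM and PVAT-CM intervals did not overlap each other.

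**Figure D4:**
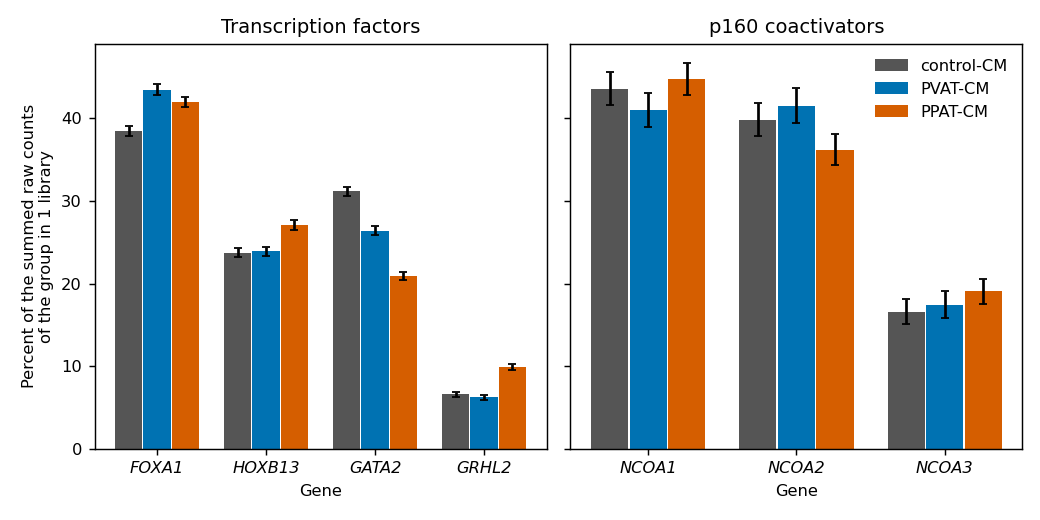
Percent of the summed raw counts of the group in each library taken by each transcription factor (left) and each p160 coactivator (right), with exact 95% binomial intervals as error bars (1 library per medium). The share of GATA2 steps down from 31.2% to 26.4% and 21.0%, and that of GRHL2 is highest in PPAT-CM at 9.94%.

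Paralogs of the cofactors, picked by symbol after the values were seen, showed how far a cofactor stands for its family. FOXA2 and FOXA3 had at most 1 count in any library, so nearly all FOXA counts were FOXA1. GATA2 took 98.8% of the counts of the GATA family in control-CM, and GATA3 was at 0 counts in all 3 libraries. GATA6 was the only other GATA gene above 20 counts, with 76, 97 and 164 counts. It was 1.78-fold higher (1.35 to 2.37) in PPAT-CM than in control-CM, opposite to GATA2, and at 2.26 CPM per kb it stayed far under the 65.5 of GATA2 in that library. HOXB13 took 96.5% of the counts of the HOXB cluster in control-CM. HOXB9 had 59, 48 and 142 counts, a level 1.99-fold higher (1.46 to 2.74) in PPAT-CM than in control-CM, at 2.99 CPM per kb beside 109 for HOXB13 in PPAT-CM. Minor HOXB genes went both ways in this comparison. HOXB6, with 20, 25 and 44 counts, was 1.81-fold higher (1.05 to 3.25). HOXB5, with 43, 24 and 28 counts, was 1.86-fold lower (1.13 to 3.11). GRHL1, with 226, 203 and 260 counts, had an interval for PPAT-CM against control-CM that included 1 (0.791 to 1.14) and lay below that of GRHL2 (1.19 to 1.35). The interval of CREBBP, the paralog of EP300, also included 1 (0.908 to 1.09), on 910, 795 and 1095 counts.

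GATA2 had the largest absolute ratio of the cofactors in PPAT-CM against control-CM, and genes were ranked by their distance from it in the log2 ratios of both adipose media against control-CM. Among 8988 genes with a mean of at least 200 counts, the 5 nearest were GAS6, SMIM10L2A, SREK1IP1, ZNF571 and ADAMTS13, at distances of 0.018, 0.019, 0.024, 0.027 and 0.031. GAS6, which encodes a ligand of TAM receptor kinases, had 552, 414 and 380 counts. In all, 24 genes lay within a distance of 0.1. The likeness rests on 2 ratios from 3 libraries.

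Other genes that act around the receptor were taken from 8 lists with 200 genes, of which 183 passed the count filter. The lists were chosen with earlier results of these data known, so their shares describe these libraries and are no independent result. In PPAT-CM against control-CM, 28 of the 183 passed 1.5-fold on the higher side and 13 on the lower, or 15.3% and 7.10%, beside 12.0% and 8.71% of all genes tested. In PVAT-CM against control-CM 5 were higher and 1 lower, or 2.73% and 0.546%, both below the 3.15% and 3.49% of all genes. In PPAT-CM against PVAT-CM 18 were higher and 16 lower, or 9.84% and 8.74%, beside 8.56% and 6.07%. Most of these genes belonged to the chaperones, the lineage factors and the androgen-responsive genes, and fewer to the coregulator lists. Scaling by total counts shifts each ratio of PPAT-CM to control-CM up by 0.24 on the log2 scale, which turns the list medians that are below 0 in that comparison to above 0.

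Receptor chaperones hold the hormone-free receptor in a state that can bind hormone. The list of receptor chaperones also held the ubiquitin ligase gene STUB1, so its genes do not all have this function. Of 16 tested, 8 were at least 1.5-fold higher in PPAT-CM than in control-CM and 0 lower, or 50% and 0% beside 12.0% and 8.71% of all genes. The median was 0.52 beside 0.03 over all genes. Because the list was chosen with earlier results of these data known, this share is no independent result. FKBP5, a co-chaperone that is itself an androgen and glucocorticoid target, had 155, 154 and 650 counts, which put PPAT-CM 3.46-fold (2.90 to 4.15) above control-CM. HSPA8, the constitutive heat shock cognate protein, had 3107, 3905 and 8276 counts, a 2.20-fold higher level (2.11 to 2.29). The 8 also held STUB1, PTGES3, PPID, BAG1, DNAJA1 and FKBP4, named here after their values were seen, between 1.56-fold and 1.96-fold higher. The HSP90 genes, singled out after their values were seen, were near 1, with HSP90AA1 at 1.04-fold (1.01 to 1.07) and HSP90AB1 at 1.01-fold (0.990 to 1.03). In PVAT-CM against control-CM 0 of the 16 passed in either direction, beside 3.15% higher and 3.49% lower of all genes. The median was 0.14. In PPAT-CM against PVAT-CM 4 were higher and 0 lower, or 25% and 0% beside 8.56% and 6.07% of all genes. The 4 held FKBP5 at 3.27-fold (2.74 to 3.93) and STUB1, a ubiquitin ligase of chaperone clients, at 1.68-fold (1.51 to 1.88).

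The coregulator lists had medians between -0.13 and 0.19 in PPAT-CM against control-CM, beside 0.03 over all genes. Their calls were near or below the 12.0% higher and 8.71% lower of all genes. Of 28 other coactivators 4 were higher and 1 lower, or 14.3% and 3.57%, with a median of 0.19. KAT5 was 1.76-fold (1.36 to 2.31) and TRIM68 1.71-fold higher (1.54 to 1.89), and the acetyltransferase gene KAT2A, with 7002, 4579 and 4615 counts, was 1.84-fold lower (1.77 to 1.91). Of 32 Mediator subunits 2, or 6.25%, were higher, MED22 at 1.72-fold (1.47 to 2.02) and MED19 at 1.71-fold (1.40 to 2.09), with a median of -0.00. Of 17 SWI/SNF subunits 2, or 11.8%, were higher, BRD7 at 1.70-fold (1.51 to 1.92) and SMARCD3 at 1.61-fold (1.48 to 1.76), with a median of 0.17. Of 23 corepressor subunits 2, or 8.70%, were higher, CTBP2 at 2.04-fold (1.92 to 2.17) and the Groucho-family gene TLE1 at 1.65-fold (1.497 to 1.83), with a median of 0.11. Of 15 histone demethylases and methyltransferases 1, or 6.67%, was lower, KMT2C at 1.56-fold (1.47 to 1.65), with a median of -0.13. In PVAT-CM against control-CM these 5 lists together held 1 gene past 1.5-fold, MED30, at 1.602-fold higher (1.20 to 2.15) on 81 and 122 counts. Of all genes, 3.15% were higher and 3.49% lower there. In PPAT-CM against PVAT-CM 5 were higher, SMARCD3 at 1.93-fold (1.75 to 2.12), CTBP2 at 1.91-fold (1.80 to 2.03), TLE1 at 1.70-fold (1.54 to 1.89), MED22 at 1.63-fold (1.39 to 1.90) and PIAS3 at 1.54-fold (1.37 to 1.74), and MED30 was 1.62-fold lower (1.23 to 2.14). Of all genes, 8.56% were higher and 6.07% lower in this comparison.

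Other transcription factors of prostate and luminal cells included larger ratios than any of FOXA1, HOXB13, GATA2 and GRHL2. Of 24 tested, 4 were at least 1.5-fold higher and 2 lower in PPAT-CM than in control-CM, or 16.7% and 8.33% beside 12.0% and 8.71% of all genes, with a median of -0.04. XBP1, a regulator of secretory cells, had 1823, 2837 and 8393 counts, which put PPAT-CM 3.80-fold (3.61 to 3.997) above control-CM. SOX9, a factor of progenitor and ductal cells, had 499, 461 and 1965 counts, a 3.25-fold higher level (2.94 to 3.59). NR3C1, the glucocorticoid receptor, had 136, 71 and 48 counts and was 3.43-fold lower (2.45 to 4.88), and ZBTB16, a zinc finger repressor, had 154, 135 and 63 counts and was 2.96-fold lower (2.20 to 4.04). PVAT-CM against control-CM gave 3 higher and 1 lower, or 12.5% and 4.17% beside 3.15% and 3.49% of all genes. KLF5 was 2.35-fold higher there (1.43 to 3.98) on 24 and 53 counts. CEBPB was 1.73-fold higher (1.62 to 1.85) and NR3C1 1.80-fold lower (1.34 to 2.43). In PPAT-CM against PVAT-CM 3 were higher and 4 lower, or 12.5% and 16.7% beside 8.56% and 6.07% of all genes. The higher ones held SOX9 at 3.30-fold (2.98 to 3.67) and ELF3 at 2.40-fold (2.19 to 2.64). The lower ones held ZBTB16 at 2.76-fold (2.03 to 3.79) and NR3C1 at 1.91-fold (1.30 to 2.81).

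Androgen-responsive genes went in both directions. The list does not separate genes that androgen raises from genes that it lowers. Its numbers of lower and higher genes are therefore no measure of less or more receptor activity. Of 30 tested, 9 were at least 1.5-fold lower and 7 higher in PPAT-CM than in control-CM, or 30% and 23.3% beside 8.71% and 12.0% of all genes, with a median of -0.10. KLK3, whose upstream window is printed above, had 10286, 9982 and 4577 counts and was 2.72-fold lower (2.63 to 2.82). TMPRSS2, an androgen-induced serine protease, had 3235, 2721 and 1477 counts and was 2.66-fold lower (2.50 to 2.83). FKBP5, also counted with the chaperones, and CENPN, at 3.22-fold (2.49 to 4.22), were the 2 with the largest ratios on the higher side. With PVAT-CM against control-CM 1 of the 30, or 3.33%, was higher and 0 were lower, beside 3.15% and 3.49% of all genes. The median there was 0.12. In PPAT-CM against PVAT-CM 11 were lower and 7 higher, or 36.7% and 23.3% beside 6.07% and 8.56% of all genes. There KLK3 was 2.81-fold (2.72 to 2.91) and KLK2 2.39-fold lower (2.10 to 2.74). Beside the 2.72-fold difference of KLK3, FOXA1 and HOXB13 differed by at most 1.09-fold in PPAT-CM against control-CM, and GATA2 by 1.77-fold.

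**Figure D5:**
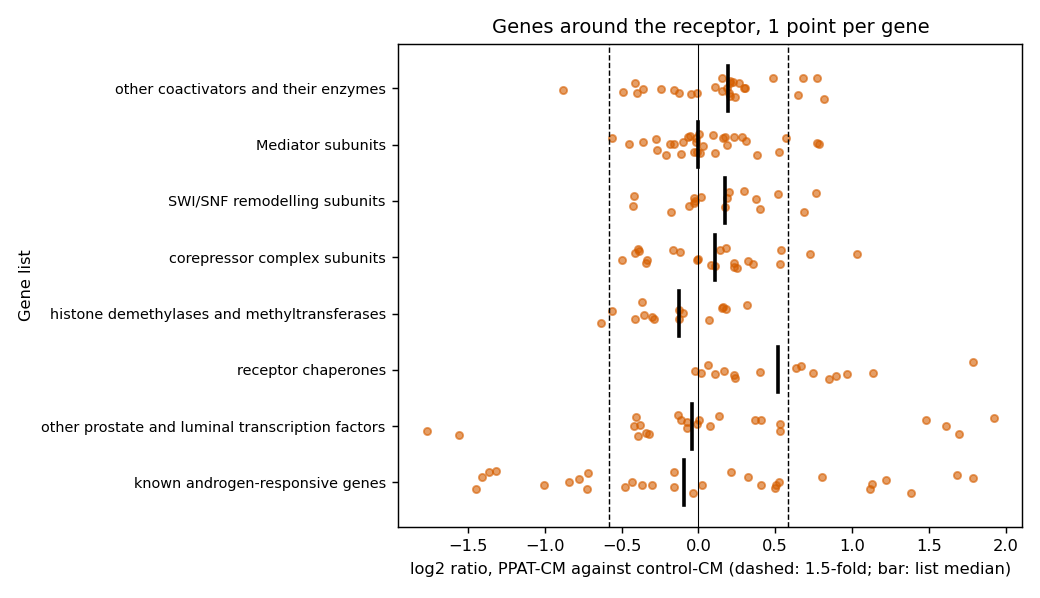
log2 ratio of TMM-scaled counts in PPAT-CM against control-CM for the genes of 8 lists around the receptor, 1 point per gene with vertical scatter for visibility, list medians as black bars and 1.5-fold as dashed lines (1 library per medium). Receptor chaperones have a median of 0.52 with 8 of 16 past the right dashed line, and androgen-responsive genes lie on both sides, 9 lower and 7 higher. The lists were chosen with earlier results of these data known.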

How the data were processed

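Poly(A) RNA was measured in 3 LNCaP libraries, 1 for each medium. The authors deposited raw read counts per Ensembl gene. Per the submitters' processing notes, FastQC, Trimmomatic, HISAT2, featureCounts and edgeR were used with GRCh38; the sources used here give neither versions nor a strand setting. Reads of overlapping or near-identical genes may therefore have been shared or dropped. Names and exon lengths came from GENCODE 29, which matched 58611 of 58884 rows, and list symbols from a gene name table. TMM factors (edgeR 4.0.16, R 4.3.3) were 0.917 (control-CM), 1.01 (PVAT-CM) and 1.08 (PPAT-CM).

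Genes with a mean of at least 50 counts were kept. Ratios of scaled counts used a pseudocount of 0.5 for ranks, medians and the 1.5-fold threshold. Printed folds have no pseudocount and carry exact conditional binomial (Clopper-Pearson) 95% intervals, and shares have exact binomial ones. At these depths a count of 0 (a limit of 3 counts) allowed up to 0.198 (control-CM), 0.210 (PVAT-CM) and 0.163 CPM (PPAT-CM). A quasi-likelihood test in edgeR could not be fitted, since 1 library per medium leaves nothing to estimate spread from, and no p-value is given. Members and lists were chosen with earlier results of these data known. The named genes were the 9 cofactors, KLK3, at most 2 genes per list, direction and comparison that were past 1.5-fold with an interval excluding 1, and the 5 genes nearest to the cofactor with the largest ratio. Paralogs, the HSP90 genes and 6 further chaperones were named outside this rule, after their values were seen. Alternatives were DESeq2 1.42.0 size factors, total counts, upper quartile factors, TMM without mitochondrial genes, other count filters, pseudocounts and thresholds, and transcript length. Steps ran in Python 3.11.15 (scipy 1.17.1, pandas 2.3.3, numpy 2.4.6) and were tested on simulated counts. The transcript of the receptor itself and some genes that these rules would name are not reported here.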

Additional observations from a re-analysis of the deposited data

How the results depend on the processing

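With 1 library per medium no replicate could be left out. No paired analysis was possible because each medium had 1 library. GATA2 was lower in PPAT-CM than in control-CM under every scaling, between -0.90 and -0.58 on the log2 scale, and GRHL2 higher, between 0.27 and 0.58. Total counts moved the median of all genes by 0.24 in PPAT-CM and 0.13 in PVAT-CM against control-CM and by 0.11 between the adipose media. With them FOXA1, HOXB13, NCOA1 and EP300 turned to 0.12, 0.18, 0.14 and 0.09 in PPAT-CM against control-CM, 0 cofactors were lower there, and 1, GRHL2, was higher in PPAT-CM against PVAT-CM. Under upper quartile factors NCOA3 was at -0.01 in PPAT-CM against control-CM. At 2-fold 0 cofactors were lower in PPAT-CM than in control-CM. At a looser threshold, 0.32 on the log2 scale, 1 was higher there, 2 were lower in PVAT-CM than in control-CM, and 1 was higher and 1 lower between the adipose media.

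Of the list genes, total counts gave 46 higher in PPAT-CM and 11 higher in PVAT-CM against control-CM. In PVAT-CM against control-CM a mean count of at least 200 gave 3 higher and 0 lower, and no filter 9 and 3. At 2-fold the higher and lower list genes were 12 and 7 in PPAT-CM against control-CM, 1 and 0 in PVAT-CM against control-CM and 5 and 7 between the adipose media. At the looser threshold they were 47 and 40, 24 and 9, and 43 and 27.

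Of all genes, 1475 were higher and 1068 lower in PPAT-CM and 386 and 428 in PVAT-CM against control-CM, and 1049 and 744 between the adipose media. Total counts gave 2950 and 538, 818 and 218, and 1473 and 512, and upper quartile factors 1194 and 1346 in PPAT-CM against control-CM. In the same order of comparisons, a mean count of at least 10 gave 2310 and 2131, 985 and 1320, and 1970 and 1579, and one of at least 200 gave 918 and 532, 161 and 126, and 555 and 361. No filter gave 7059 and 6625, 5181 and 5952, and 6777 and 5785. At 2-fold there were 482 and 336, 57 and 52, and 300 and 180, and at the looser threshold 3125 and 2493, 1665 and 1497, and 2485 and 2014.

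Per kb of the longest transcript, control-CM levels were 223 for FOXA1, 153 for GATA2, 114 for HOXB13 and 20.8 for GRHL2. They were 10.4 for NCOR1, 9.32 for NCOA1, 7.48 for NCOA2 and 7.45 for EP300, which puts NCOR1 above NCOA1. By this length GATA2 was also above HOXB13 in PVAT-CM, at 121 beside 106, and below it in PPAT-CM, at 86.7 beside 109. Per exon length the p160 shares of NCOA1 and NCOA2 were 45.9% and 36.2% in control-CM, 43.3% and 37.8% in PVAT-CM and 46.9% and 32.6% in PPAT-CM.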
